A study of Mus musculus with 36 samples.

Results

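The 18 brain libraries described here are the 2 ends of a ranking by genes typical of brain below the cortex. The measured levels of 6 genes chose them: Slc17a6, the vesicular glutamate transporter of thalamic, hypothalamic and brainstem neurons, Tcf7l2, a transcription factor of the thalamus, Hap1, Baiap3 and Ahi1, which are abundant in the hypothalamus, and Gal, the neuropeptide galanin. The libraries were chosen by the mean of log2(CPM + 1) over these genes in the deposited CPM table (counts scaled to a common library size), called the level below. Of 36 libraries, 9 were left out by the rule and 27 were ranked. The 9 highest (high libraries) were set against the 9 lowest (low libraries), and the other 9 lay between them. Because measured values chose the libraries, every difference between high and low libraries is a description of what moved with the level, and its counts past a threshold support nothing further.

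The study measured polyadenylated RNA from 10 mg of mouse brain tissue, frozen on postnatal day 19. The mice were wild type (WT) or knockout (KO) for Gpt2, which encodes a mitochondrial alanine transaminase. They were injected intraperitoneally with vehicle or with dm-αKG, an ester form of the metabolite α-ketoglutarate, at 600 mg per kg. This gave 10 vehicle-treated WT libraries (WT-Veh), 8 WT libraries with dm-αKG (WT-aKG), 10 vehicle-treated KO libraries (KO-Veh) and 8 KO libraries with dm-αKG (KO-aKG). The sources used here give no brain region, sex, strain or deleted part of Gpt2. The submitters call the libraries biological replicates without saying that each is a separate animal, so the p-values describe only how these libraries vary, and part of that may be technical.

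As background, the mammalian forebrain divides into the telencephalon, with cortex, hippocampus and striatum, and the diencephalon, with thalamus, habenula and hypothalamus. Cortical projection neurons load glutamate with Slc17a7, whereas most diencephalic and brainstem glutamate neurons use Slc17a6. The hypothalamus holds small sets of neurons that each make 1 or a few neuropeptides in large amounts, and the brainstem holds most of the dopamine, serotonin and noradrenaline neurons and the glycine neurons.

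The level ranged from 4.38 to 6.37 in the high libraries (median 4.99), from 3.44 to 4.27 in those between and from 2.41 to 3.31 in the low libraries (median 2.82). The lowest of the high libraries, KO-Veh-8, was at 4.38 and the first library outside, KO-aKG-4, at 4.27. On the other side WT-Veh-8 was the highest low library at 3.31 and KO-Veh-1, just outside, was at 3.44. Slc17a6 was at 20.8, 40.6 and 132 deposited CPM (lowest, median, highest) in high and at 5.62, 8.93 and 13.6 in low libraries. Gal was at 2.68, 8.30 and 38.7 in high and at 0.0826, 0.189 and 1.99 in low libraries. Vehicle-treated WT libraries numbered 2 among the high and 2 among the low, treated WT libraries 1 and 2, vehicle-treated KO libraries 2 and 4, and treated KO libraries 4 and 1. KO libraries made up 6 of the high and 5 of the low libraries (2-sided Fisher's exact test, p = 1), and dm-αKG libraries 5 and 3 (2-sided Fisher's exact test, p = 0.637). Libraries with more Xist than Ddx3y RNA, a female pattern, numbered 5 and 2 (2-sided Fisher's exact test, p = 0.335).

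**Figure D1:**
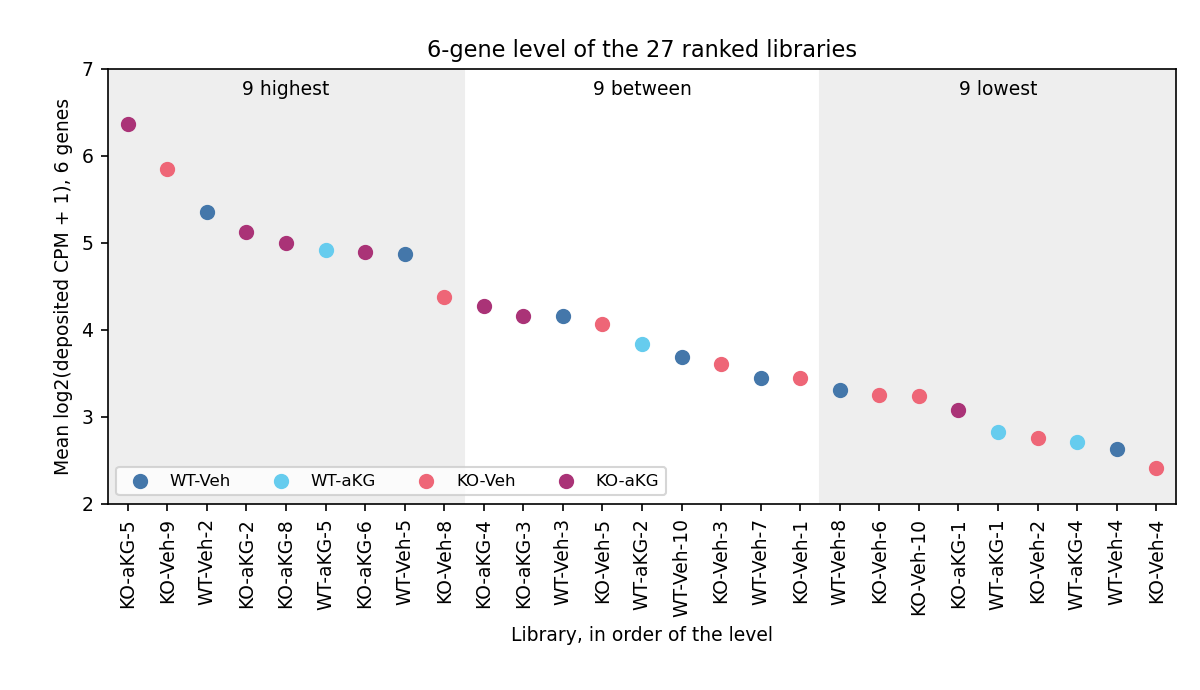
Level of the 6 choosing genes, as mean log2(deposited CPM + 1), in each of the 27 ranked libraries, coloured by group, with the 9 highest and 9 lowest shaded. The points fall from 6.37 to 2.41, with 4.38 beside 4.27 at the upper limit and 3.44 beside 3.31 at the lower, and all 4 groups occur at both ends.

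High libraries held 5768000 to 11954000 counts and low libraries 10509000 to 12457000, to the nearest 1000. KO-aKG-5, the library with the highest level, was the shallowest. Mitochondrial ribosomal RNA took a median of 19.5% of counts in high and 22.3% in low libraries. Gpt2 RNA followed the genotype labels in all 18. WT libraries held 28.9 to 34.4 CPM of it among the high and 28.5 to 39.0 among the low libraries, and KO libraries 1.12 to 2.88 and 2.04 to 3.30.

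Across all genes, 3101 of 16201 tested genes (19.1%) passed an adjusted p of 0.05 between high and low libraries with edgeR, 1584 higher (9.78%) and 1517 lower (9.36%) in the high libraries. The median log2 difference was 0.01. This split rests on the scaling of the libraries: with plain library totals the median gene moved to 0.25, and 3828 genes (23.6%) were called, 3395 higher (21%) and 433 lower (2.67%). Of all tested genes, 157 were higher in every high library than in any low library (0.969%) and 152 lower (0.938%). Differences over 2-fold were called for 514 genes higher and 238 lower. Without WT-Veh-2 the count of called genes fell to 1954, and in the vehicle libraries alone it was 260. With the replicate number added to the model as a block it was 0, and only the numbers 2, 6 and 8 occurred at both ends. In pieces of tissue, fewer cells of a type and less RNA per cell cannot be told apart, which holds for every gene below.

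The hypothalamic list held 24 genes, of which 18 were abundant enough to test. All 18 tested members passed the threshold as higher in the high libraries, with log2 differences of 0.96 to 6.14 (median 4.48). The other 6 members, Kiss1, Six6, Hmx2, Hmx3, Nr5a1 and Bsx, were too low to test, and a rare gene enters the test mainly through the libraries where it is high. Avp and Oxt, which encode the hormones vasopressin and oxytocin, are neighbouring genes. Their upstream sequences are shown because both genes were among those with the largest differences and were led by the same libraries. The sequences are the 250 bases before the RefSeq start of each gene, 5′ to 3′ on the gene's own strand in the build GRCm38.p6, with Avp at chr2:130582589-130582838 (minus strand) and Oxt at chr2:130575919-130576168 (plus strand). Capitals mark the E-box CACGTG in Avp and the nuclear receptor motif TGACC, or GGTCA on the other strand, in Oxt.
Avp: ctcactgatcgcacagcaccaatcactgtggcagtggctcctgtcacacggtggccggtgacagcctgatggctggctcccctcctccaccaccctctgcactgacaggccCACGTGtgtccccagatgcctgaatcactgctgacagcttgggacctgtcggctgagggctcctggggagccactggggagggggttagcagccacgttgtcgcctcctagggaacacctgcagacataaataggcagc
Oxt: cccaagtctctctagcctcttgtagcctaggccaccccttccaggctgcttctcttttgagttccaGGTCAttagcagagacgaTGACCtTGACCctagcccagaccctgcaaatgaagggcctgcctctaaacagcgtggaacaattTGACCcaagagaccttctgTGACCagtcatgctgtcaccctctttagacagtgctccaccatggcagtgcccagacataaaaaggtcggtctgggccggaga
Both strands were searched for both motifs. The Avp window held CACGTG once, 139 bases before the start, and no TGACC, and at least 1 CACGTG occurred in 6.02% of 32851 RefSeq windows of the same length. In the Oxt window TGACC occurred 5 times, 4 on the gene's strand and 1 on the other, and CACGTG did not occur. At least 1 TGACC was found in 35.2% of windows and as many as 5 in 14 windows (0.0426%). These are matches of letters and were not tested as binding sites.

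Avp stood at 1.62, 90.7 and 474 CPM (lowest, median, highest) in the high libraries and at 0.570, 2.24 and 5.93 in the low libraries. All high libraries but WT-Veh-2 lay above all low ones, and the log2 difference was 5.24 (SE 0.86, n = 9 and 9). Oxt ran from 0.764 through 33.9 to 186 CPM in high and from 0.181 through 0.744 to 3.10 in low libraries, a log2 difference of 5.42 (SE 0.88), again with only WT-Veh-2 inside the low range. The order of libraries was alike for the pair at the top: KO-Veh-9 held the most of both (474 and 186 CPM) and KO-aKG-5 the second most (187 and 73.5).

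The neuropeptides of the lateral hypothalamus had another leader. Pmch, which encodes melanin-concentrating hormone, ranged from 0.859 through 39.4 to 402 CPM in high and from 0.252 through 0.781 to 5.38 in low libraries (log2 difference 5.98, SE 1.10). Hcrt, the orexin precursor gene that drives wakefulness, ranged from 0 through 9.28 to 188 CPM in high and from 0.114 through 0.497 to 4.32 in low libraries (4.24, SE 1.14). Both were highest in KO-aKG-5, at 402 and 188 CPM, where KO-Veh-9 held 29.2 and 22.9. Both tiers overlapped for the pair: 6 high libraries exceeded all low ones for Pmch and 5 for Hcrt, and WT-Veh-2 had no Hcrt count. Among the low libraries KO-Veh-10 stood apart, with 5.38 CPM of Pmch and 4.32 CPM of Hcrt.

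The arcuate feeding peptide gene Agrp was again led by KO-Veh-9, at 80.3 CPM, followed by KO-aKG-6 at 40.6. Its median was 11.2 CPM in high and 1.09 CPM in low libraries (log2 difference 3.65, SE 0.76), and only 1.97 CPM was found in KO-aKG-5. Pomc, which is made by the opposing set of arcuate neurons, differed less, with medians of 7.27 and 3.48 CPM (0.96, SE 0.24). Trh, thyrotropin-releasing hormone, was above all low libraries in each of the 9 high ones, at 4.94, 10.4 and 22.9 CPM against 0.223, 1.49 and 3.92 (2.98, SE 0.42). Ghrh, growth hormone-releasing hormone, did not overlap either, at 0.274 to 4.43 CPM against 0 to 0.178 (5.31, SE 0.67). Transcription factors that specify hypothalamic neurons followed: Otp was at 0.960 to 19.7 CPM in high and 0 to 0.571 CPM in low libraries, with no overlap (5.60, SE 0.63), and Nkx2-1 at 0.477 to 9.44 and 0 to 0.980 CPM, with overlap (3.43, SE 0.61). Without KO-aKG-5 and KO-Veh-9 together, 12 members of the list still passed, and without WT-Veh-2 alone 22 of 22 tested members did.

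**Figure D2:**
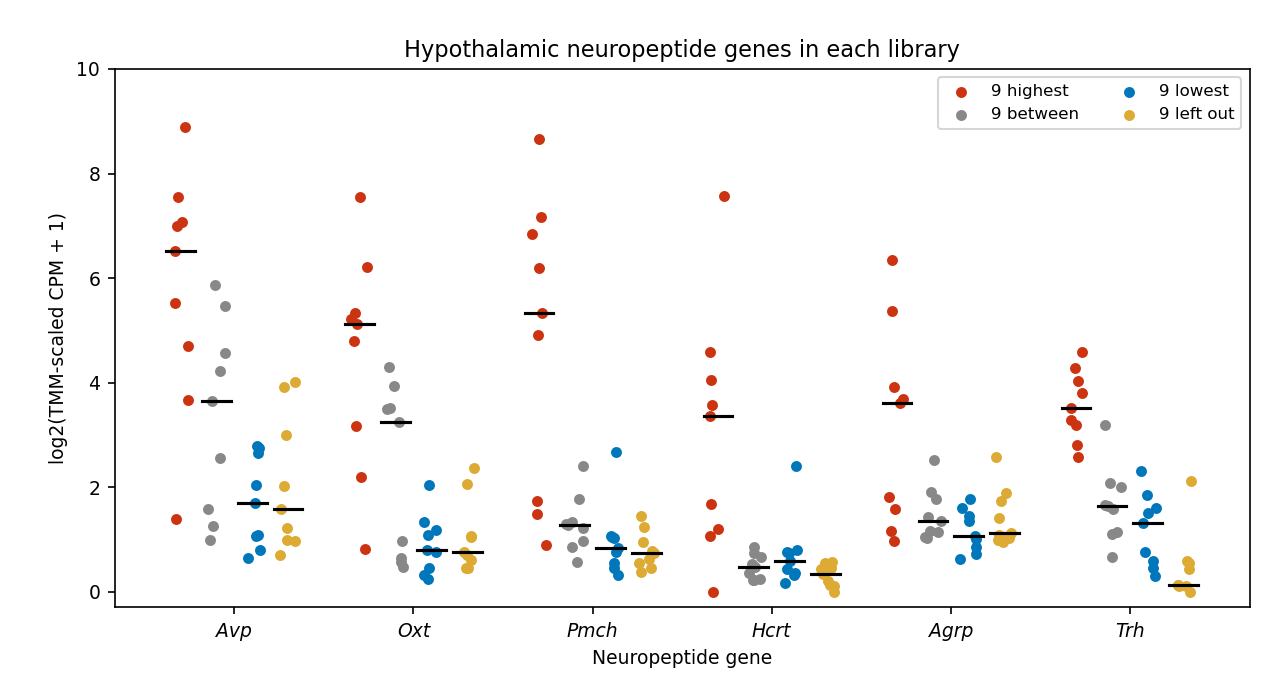
log2(TMM-scaled CPM + 1) of 6 hypothalamic neuropeptide genes in each library, by position in the ranking, with black bars at medians and the 9 left-out libraries beside them. Avp in the 9 highest libraries spans 1.62 to 474 CPM, whereas Trh in the same libraries keeps to 4.94 to 22.9 CPM and clears all 9 lowest libraries.

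Thalamic genes were higher by less. Of 17 thalamic genes, 12 passed the threshold as higher and none as lower, with a median log2 difference of 1.12. Calb2, the calcium-binding protein calretinin, was at 39.3, 68.2 and 134 CPM in high and at 8.92, 16.8 and 32.5 CPM in low libraries, with no overlap (2.03, SE 0.29). Slitrk6 was the other member with no overlap, at 1.48 to 7.35 and 0.335 to 1.25 CPM (2.40, SE 0.37). Gbx2, a homeobox gene of thalamic neurons, had the largest difference in the list (3.56, SE 0.71), and its highest value, 7.54 CPM, was in WT-Veh-2. Prkcd, a kinase gene of thalamic relay neurons, had medians of 9.67 and 5.20 CPM (1.25, SE 0.28). The 5 thalamic members that missed the threshold were Lef1, Ramp3, Synpo2, Tnnt1 and Cacna1g, with log2 differences of -0.47 to 1.12. In the habenula list 4 of 7 genes were tested. Tac2, Pou4f1 and Chrna3 were higher and Nwd2 was lower (-0.56, SE 0.16), and Gpr151, Chrnb3 and Chrnb4 were too low to test. Pou4f1, a factor of medial habenula and sensory neurons, reached 8.59 CPM in the high libraries and at most 0.326 CPM in the low libraries. Leaving out WT-Veh-2 and KO-aKG-8 together left 8 thalamic and 1 habenular gene called higher, and leaving out either alone also left 1 habenular gene. The lower habenular call was lost without WT-aKG-4.

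Among the high libraries, genes of the midbrain and hindbrain were also highest in WT-Veh-2, followed by KO-aKG-8. Their scores, as mean log2(CPM + 1) of the list, were 2.203 and 5.06 in WT-Veh-2 and 2.12 and 3.71 in KO-aKG-8. Slc6a5, the glycine transporter of spinal and brainstem inhibitory neurons, was at 0.303, 3.03 and 78.5 CPM in high and at 0.0839, 0.342 and 1.12 CPM in low libraries (5.19, SE 1.23). Its high values sat in KO-aKG-8 (78.5), WT-Veh-2 (39.8) and KO-aKG-6 (33.1), whereas KO-aKG-5, KO-Veh-9, WT-aKG-5 and WT-Veh-5 lay within the low range. The glycine receptor gene Glra1 was higher in all 9 (1.65 to 49.1 against 0.0929 to 1.07 CPM, 4.57, SE 0.83). Hoxb5, a positional gene of the caudal hindbrain, was at 36.2 CPM in WT-Veh-2 and at most 0.456 CPM in the low libraries. Of 18 hindbrain genes 6 were tested and all 6 passed as higher (median 5.02). That median was 2.52 without WT-Veh-2 and 1.43 with another test, limma, on the deposited CPM. Rare genes enter the test mainly through the libraries where they are high, so the filter largely fixed this count. The remaining 12, mostly Hox genes, were too low to test, and 1 gene passed without WT-Veh-2 and 3 without KO-aKG-2, KO-aKG-6 or KO-aKG-8, each alone. As removing a library also changes which genes can be tested, 14 passed without WT-Veh-5, 12 without WT-aKG-1 and 11 without WT-aKG-4. Of 13 midbrain genes 7 were tested and the rest were too low, so the filter bears on this list too. Otx2 (1.55, SE 0.43) and Lmx1b (2.05, SE 0.56) passed as higher and none as lower, not far from the 19.1% of all genes called. The count was 1 without KO-aKG-6 or KO-aKG-8, 4 without WT-Veh-5, 0 without WT-Veh-2 and KO-aKG-8 together, and 4 with library totals.

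Genes of transmitter systems that lie below the cortex were also higher. In the monoamine list 7 of 12 genes were tested and 6 passed as higher (median 2.50). Slc18a2, which loads all monoamines into vesicles, was at 1.79, 6.62 and 42.1 CPM in high and at 0, 0.372 and 1.59 CPM in low libraries, with no overlap (4.20, SE 0.71). The dopamine transporter gene Slc6a3 was high in KO-aKG-8 (28.04 CPM), WT-Veh-2 (19.4) and KO-aKG-5 (12.9) and at most 2.14 CPM in the other high libraries. Hdc, which makes histamine in the posterior hypothalamus, did not overlap (1.34 to 8.54 against 0.0929 to 1.25 CPM, 2.65, SE 0.41). Tph2 of serotonin neurons missed the threshold (1.42, SE 0.71), and Dbh, Slc6a2, Slc6a4, Fev and Pitx3 were too low to test. All 8 cholinergic genes passed as higher (median 2.74), among them the acetylcholine-making enzyme Chat (2.29, SE 0.54) and the choline transporter Slc5a7 (2.94, SE 0.63). Of the genes shared by inhibitory neurons, 3 of 5 were higher and none lower, among them Gad2 (1.02) and Slc32a1 (0.93), and Gad1 and Abat missed the threshold. Of 10 genes of cortical interneurons Vip passed as lower (-1.03) and none as higher, a call lost without any of 9 libraries, and the list's median of -0.14 became 0.11 with library totals.

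Imprinted genes, which are expressed from 1 parental copy and are abundant in the hypothalamus, were higher as a group. Of 21 members, all tested, 15 passed as higher and none as lower (median 1.03), and 9 of the 15 did not overlap between high and low libraries. The same number, 15, passed as higher whichever library was left out, and 1 passed as lower without KO-Veh-9. Dlk1, a Notch-related protein of neuroendocrine cells, was at 20.9, 55.7 and 112 CPM in high and at 1.12, 4.10 and 7.66 CPM in low libraries (4.16, SE 0.33). Peg3 was at 88.2, 156 and 224 CPM against 40.02, 59.2 and 81.2 (1.45, SE 0.17), and Magel2, a gene of the Prader-Willi region, at 2.17 to 5.91 against 0.114 to 0.897 CPM (2.93, SE 0.35). Its neighbour Ndn differed by less (0.86, SE 0.14) and also did not overlap. Meg3, Gnas, Snrpn, Plagl1, Rian and Mirg missed the threshold, at -0.17 to 0.50. Outside the fixed lists the genes with the largest differences included Arhgap36 (4.08, SE 0.31), Dgkk (3.70, SE 0.35) and AW551984 (3.15, SE 0.39), and none of the 3 overlapped. Sncg, which encodes γ-synuclein, was at 11.4 to 183 CPM in high and 2.11 to 8.39 CPM in low libraries (3.93, SE 0.64).

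Genes of forebrain excitatory neurons were lower in the high libraries. Of 13 such genes 12 passed as lower and none as higher (median -1.27). The number lower was 8 with library totals, 8 without WT-Veh-2 and 9 without WT-Veh-2 and KO-aKG-8 together. Camk2a, the calcium-dependent kinase of excitatory synapses, was at 66.5, 623 and 872 CPM in high and at 1162, 1979 and 2740 CPM in low libraries, with no overlap (-1.75, SE 0.35). Slc17a7 had medians of 128 and 394 CPM (-1.45, SE 0.32). It was detected in all 9 high libraries, at 33.8 to 297 CPM, and KO-Veh-9, at 297 CPM, overlapped the low range of 230 to 531 CPM. Camk2n1, an inhibitor of the kinase encoded by Camk2a, was at 479 to 1547 CPM against 2012 to 4943 (-1.63, SE 0.23), and Kcnh3, a potassium channel gene of the forebrain, did not overlap either (-1.60, SE 0.43).

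The cortical layers did not move as one. In the list of 11 upper-layer genes Cux1, Cux2, Stard8 and Rorb passed as lower and none as higher, and with plain library totals 2 were higher and 2 lower and the median of -0.24 became 0.05. Without KO-aKG-8, 1 was higher. Cux2 was at 10.4 to 22.04 CPM in high and 23.9 to 62.6 CPM in low libraries (-1.34, SE 0.18). Of 15 deep-layer genes Tbr1, Rprm, Hs3st4 and Cplx3 were lower and Parm1, Nxph4 and Foxp2 were higher, of which 1 without WT-Veh-2. Cplx3, a synaptic protein gene of the deepest cortical layer, had the largest decrease of all genes named by the rule, at 0.981, 4.77 and 10.7 CPM against 13.6, 22.9 and 26.6 (-2.08, SE 0.34). Nxph4 was at 5.21 to 37.4 CPM against 3.19 to 6.15 (1.86, SE 0.36) and is also known from the habenula. The other genes that the rule on size named among the decreases were Smim43 (-1.88, SE 0.43), Trbc2 (-1.82, SE 0.48), Krt12 (-1.78, SE 0.46), Epop (-1.66, SE 0.28), Arhgap15 (-1.58, SE 0.28), Emx1 (-1.58, SE 0.35), Chrdl1 (-1.52, SE 0.28) and Nrgn (-1.51, SE 0.38). All 8 overlapped between high and low libraries.

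Lists of the hippocampus, striatum, cerebellum and olfactory bulb are set here beside the 19.1% of all genes called. The hippocampal and olfactory bulb lists were near that share, and the striatal and cerebellar lists were below it. Of 13 hippocampal genes tested out of 15, 1 (C1ql2) passed as higher and 2, among them Ociad2, as lower (1 without any of 14 libraries), and the median of -0.20 became 0.06 with library totals. None of 13 striatal genes tested out of 14 passed, with edgeR or DESeq2, and none had an unadjusted p under 0.05. KO-Veh-6, a low library, had the highest striatal values of the 18, with 49.5 CPM of the dopamine receptor gene Drd1 and 185 CPM of Pde10a. Of 18 cerebellar genes Barhl1 passed as higher and Gabrd as lower. Leaving out any of 10 libraries gave 0 higher and any of 5 gave 0 lower, 6 were higher without KO-Veh-10, and library totals gave 4 higher and 0 lower. The summed level of the list was 145 to 474 CPM in high and 149 to 467 CPM in low libraries. The olfactory bulb list, with 5 of 6 genes tested, had 1 higher member, Uncx, and none lower, and no call without any of 5 libraries.

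**Figure D3:**
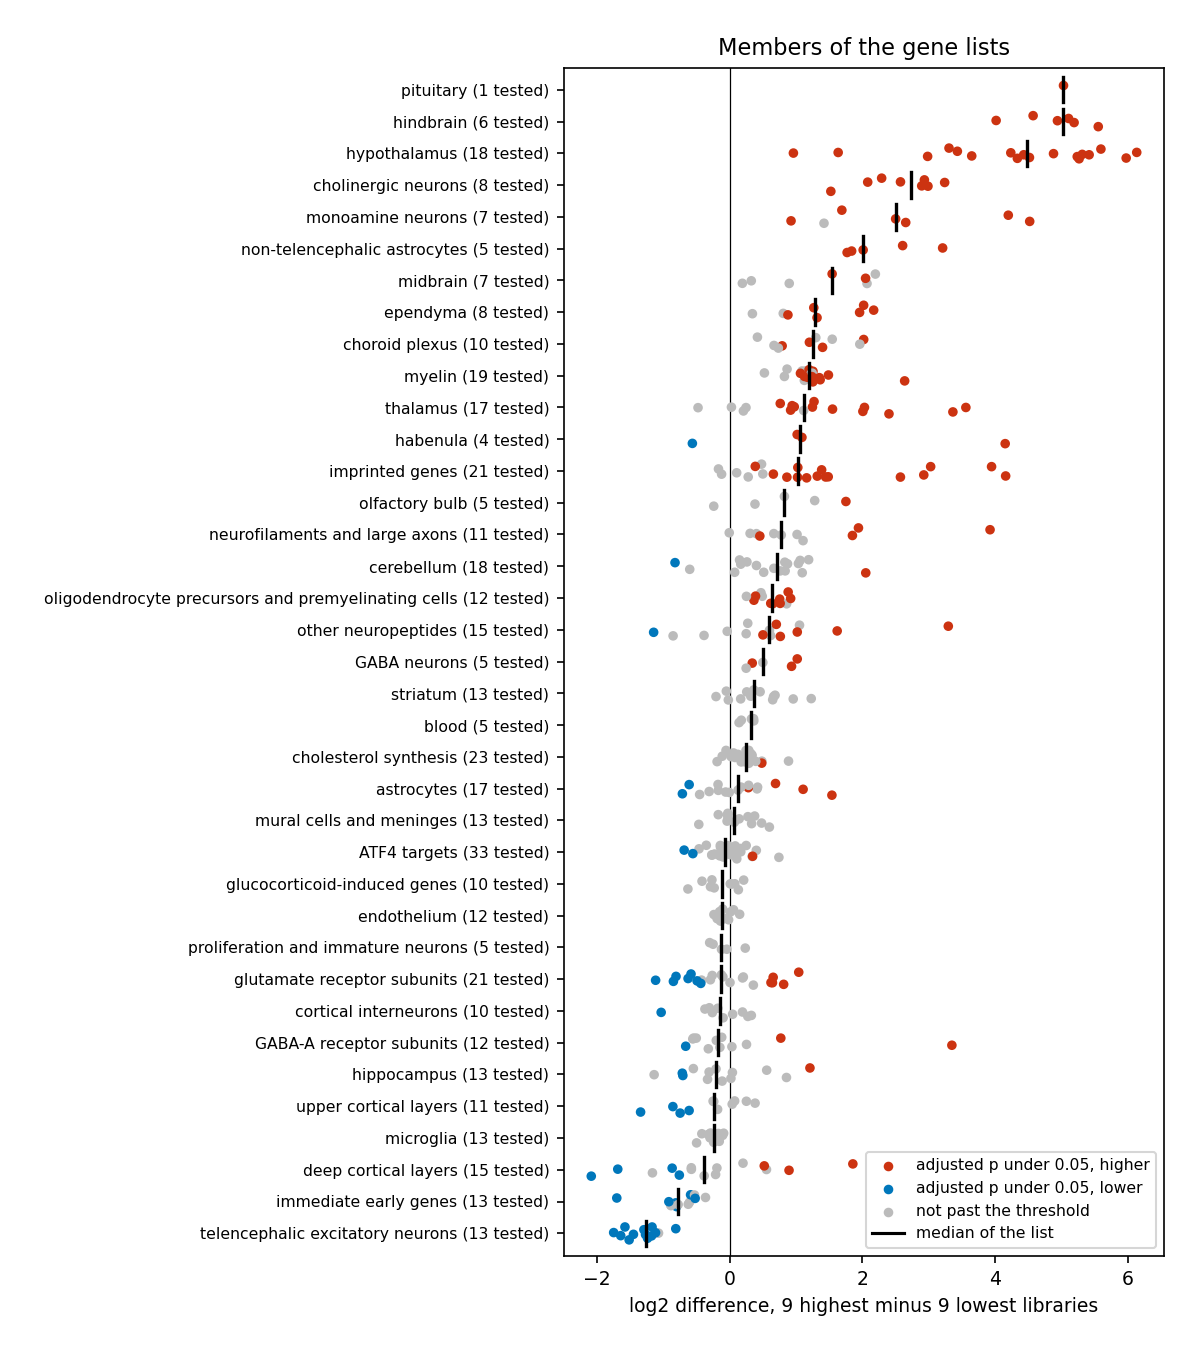
log2 difference between the 9 highest and 9 lowest libraries for each tested member of 37 gene lists, with red and blue points past an adjusted p of 0.05 and black bars at list medians. The hypothalamic and hindbrain members lie at the right, with medians of 4.48 and 5.02, and the forebrain excitatory genes at the left, with a median of -1.27.

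Receptor subunit genes went both ways. Of 12 GABA-A receptor genes tested 2 were higher and 1 lower, near the 19.1% of all genes called. Gabrq, which encodes the theta subunit of the GABA-A receptor, was at 2.29, 3.29 and 11.4 CPM in high and at 0.112, 0.465 and 0.802 CPM in low libraries, with no overlap (3.35, SE 0.38). Gabrg1 was also higher (0.77, SE 0.14), and Gabra4, a subunit of forebrain receptors outside the synapse, was lower in every high library (25.6 to 58.5 against 64.8 to 115 CPM, -0.66, SE 0.15). The other 9 tested members missed the threshold and Gabre was too low to test, and 2 members were called lower when KO-Veh-4, KO-Veh-8, KO-Veh-9, KO-aKG-2, WT-Veh-5 or WT-aKG-1 was left out. Among 21 glutamate receptor genes 5 were higher (among them Gria4, Grin2d, Grin3a and Grik1) and 7 lower (Gria3, Grin2a, Grin2b, Grin2c, Grik5, Grm2 and Grm3, of which 4 lower without WT-Veh-2). The NMDA receptor subunits went both ways, with Grin2d higher by 1.04 (SE 0.19) and Grin2a lower, at -0.85 (SE 0.17). The median of the list, -0.12, became 0.11 with library totals, as did that of the GABA-A list, from -0.17 to 0.06.

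Immediate early genes, which neurons switch on with activity, were lower or not called. Of 13 members, Arc, Egr1, Junb, Nr4a1, Ier2 and Dusp1 passed as lower and none as higher (median -0.77). Arc was at 14.1, 44.0 and 116 CPM in high and at 88.9, 162 and 260 CPM in low libraries (-1.70, SE 0.39), and 8 of 9 high libraries lay below all low ones. Single libraries decided much of this count. It was 1 without WT-Veh-2 or KO-aKG-1, 2 without KO-Veh-4 or WT-aKG-4, and 3 without KO-Veh-2, KO-Veh-8, KO-Veh-10, KO-aKG-8, WT-Veh-4 or WT-Veh-8, and 1 with library totals. In the 9 libraries between the ends the list went the other way, with positive slopes on the level for 11 of 13 members, and 2 of 13 forebrain excitatory genes had one.

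All 5 genes of astrocytes outside the telencephalon passed as higher (median 2.01), and all 5 were higher in every high library than in any low one. Agt, the angiotensinogen gene, was at 102, 327 and 491 CPM in high and at 18.8, 41.6 and 79.3 CPM in low libraries (2.61, SE 0.29). Slc6a11, a GABA transporter gene, was at 86.3 to 365 against 42.7 to 62.5 CPM (1.77, SE 0.23) and Slc6a9, a glycine transporter gene, at 26.0 to 114 against 11.9 to 19.1 CPM (1.84, SE 0.28). Igsf1 (3.21, SE 0.33) and Itih3 (2.01, SE 0.21) completed the group. In the general astrocyte list of 17, Gfap, Aqp4, Gja1 and Slc7a10 were higher and Slc1a2 and Glul lower. Slc1a2, the main glutamate transporter of forebrain astrocytes, had medians of 839 and 1328 CPM (-0.71, SE 0.15). Without WT-Veh-2 no astrocyte gene passed as higher with edgeR, and without WT-aKG-1 or WT-aKG-4 2 did.

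Myelin genes were higher, but their count rested on single libraries. Of 19 genes 11 passed as higher and none as lower (median 1.20). The count was 1 without WT-Veh-2, 3 without WT-aKG-1 or WT-aKG-4, 7 without KO-aKG-8 or KO-Veh-4, and 18 without KO-Veh-8 or KO-Veh-9. A list's score averages log2(CPM + 1) over its genes. The myelin score was highest in WT-Veh-2 (8.01), KO-aKG-8 (7.84) and KO-aKG-6 (7.24), the same 3 libraries that led for Slc6a5, and the next high library was KO-aKG-2 at 6.42. The low libraries had myelin scores of 5.17 to 6.17, and 7 of 9 high libraries lay above all of them. Of 12 genes of oligodendrocyte precursors and premyelinating cells 8 were higher (median 0.64; 5 without KO-Veh-4, WT-aKG-1 or WT-aKG-4), with Sox10 not overlapping (15.2 to 37.3 against 6.84 to 14.4 CPM, 0.92, SE 0.17). Of 11 neurofilament and large-axon genes Nefh, Prph, Sncg and Kcnc1 were higher, and 1 was without WT-Veh-2 and 2 without WT-aKG-4.

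Cells of the ventricles and vessels were measured as well. Of 8 ependymal genes 6 were higher (median 1.29), among them the cilia factor Foxj1 (1.32, SE 0.26), and 3 without KO-aKG-5 and KO-Veh-9 together. In the choroid plexus list Kl, Clic6, Sostdc1 and Calml4 were higher of 10 tested out of 11, and 2 were without WT-Veh-2, WT-aKG-1 or WT-aKG-4. The plexus marker Ttr missed the threshold (1.55, SE 0.86), and its 940 CPM in the low library KO-aKG-1 lay near the high maximum of 1209. The summed level of the choroid plexus list was 25.9 to 1250 CPM in high and 31.3 to 966 CPM in low libraries, and that of the blood list 6161 to 32622 and 6636 to 20165 CPM. The part of these cells in the other differences was not tested. Of 13 microglial genes none passed with edgeR (median -0.24), 4 had an unadjusted p under 0.05, all lower, and DESeq2 called 2 lower. With edgeR 5 passed as lower without KO-Veh-8, 3 without KO-Veh-6 and 1 without KO-aKG-1 or WT-aKG-5. None of 12 endothelial genes passed with either tool or had an unadjusted p under 0.05, and their median of -0.12 became 0.13 with library totals. None of 13 mural and meningeal genes passed with edgeR (2 had an unadjusted p under 0.05, and DESeq2 called 1; 1 passed as higher without WT-Veh-4 and 1 as lower without WT-aKG-5), and none of 5 blood genes passed with either tool or reached an unadjusted p under 0.05. The same held for the 5 tested of 6 genes of proliferation and immature neurons, with a median of -0.12 that became 0.11 with library totals. Of 6 pituitary genes only Cga was tested, and it passed as higher. Without KO-Veh-8, KO-Veh-9, KO-aKG-2 or KO-aKG-6, each alone, Cga was too low to test, so the call rests on the filter. It was at 0 to 3.17 CPM in high and at most 0.124 CPM in low libraries, while Gh and Prl had 1 and 2 counts in all high libraries together and Pou1f1 none in the 18. Other neuropeptides, with 15 of 18 tested, gave 6 higher genes, such as Nts (1.62, SE 0.43) and Gnrh1 (3.30, SE 0.80), and 1 lower, Cck (-1.14, SE 0.29), which is abundant in cortex. The number higher was 3 without WT-Veh-2, KO-Veh-2, KO-Veh-4, KO-aKG-1 or WT-aKG-1, each alone.

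The high libraries differed among themselves. The hypothalamic score was 3.81 in KO-Veh-9, 3.74 in KO-aKG-5, 3.04 in KO-aKG-2 and 2.98 in WT-Veh-5, but 1.00 in WT-Veh-2, below the 1.04 of the low library KO-Veh-10. The hindbrain score was 5.06 in WT-Veh-2, 3.71 in KO-aKG-8 and 3.55 in KO-aKG-6 and at most 2.03 in the other 6, with a low range of 0.122 to 0.720. The thalamic score was highest in WT-Veh-2, at 4.31, against 2.76 to 3.31 in the other high libraries and 2.22 to 2.59 in the low libraries. For the forebrain excitatory list every high library (3.64 to 6.22) lay below every low library (6.29 to 6.87). KO-aKG-4, the first library outside the high 9, had a hindbrain score of 3.93. In the low libraries the hypothalamic, hindbrain and thalamic scores had narrower ranges than in the high libraries. Low levels of genes of these regions chose the low libraries, and scores near 0 have little room to vary, so these ranges support nothing further. The hippocampal score (3.00 to 4.15 against 2.75 to 3.68) and the striatal score (2.73 to 5.28 against 2.81 to 4.88) had wider ranges in the low libraries.

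**Figure D4:**
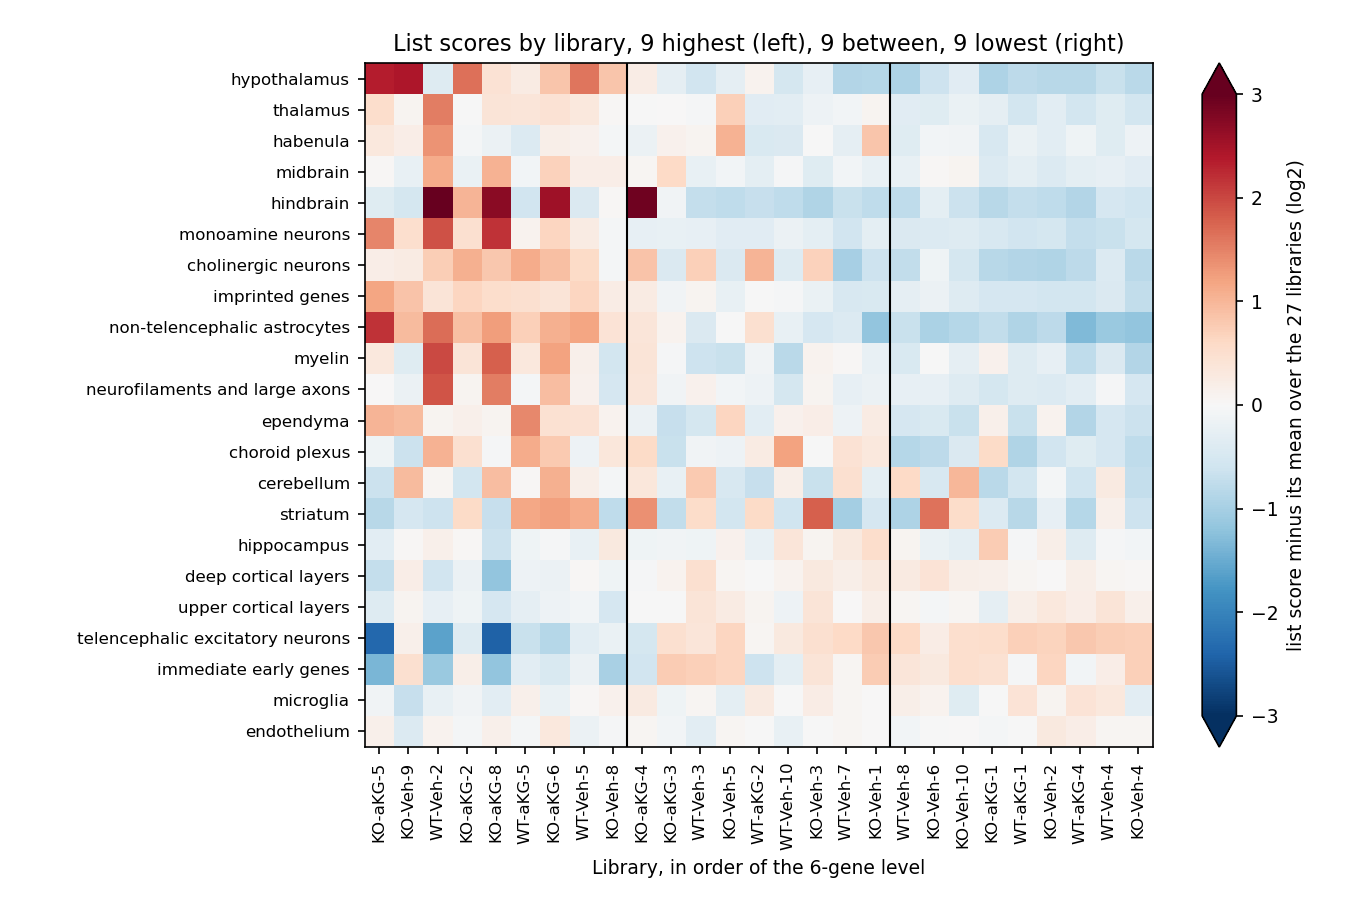
Score of 22 gene lists in the 27 ranked libraries, as difference from the list's mean over them on a log2 scale clipped at 3, ordered by the level from left to right. Hypothalamic genes peak in KO-aKG-5 and KO-Veh-9, hindbrain genes in WT-Veh-2, KO-aKG-4, KO-aKG-8 and KO-aKG-6, myelin genes in WT-Veh-2, KO-aKG-8 and KO-aKG-6, and forebrain excitatory genes are lowest in KO-aKG-5, WT-Veh-2 and KO-aKG-8.

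The same genes were then followed in libraries outside the split. In the 9 libraries between the ends, edgeR called no gene for a slope on the level (0% of 15993), and 799 genes had an unadjusted p under 0.05. Of the genes higher in the high libraries, 994 of 1485 measured there (66.9%) had a positive slope, against 50.7% of all genes. Of the lower genes 1120 of 1508 (74.3%) had a negative slope, against 49.3% of all. By list, 19 of 21 imprinted genes, 14 of 17 thalamic genes and all 8 cholinergic genes had positive slopes, and 11 of 13 forebrain excitatory genes negative ones. Other lists went against the difference between the ends. Myelin genes had 0 of 19 and choroid plexus genes 2 of 10 positive slopes, although both lists were higher in the high libraries. Immediate early genes had 11 of 13 and upper-layer genes 8 of 11 positive slopes, although their called members were lower.

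The 9 libraries that the rule left out carried the most cerebellar RNA, with a cerebellar score of 5.21 to 7.55 against 2.42 to 4.31 in the 27 ranked libraries. Within them edgeR called 346 of 16400 genes (2.11%) for a slope on the level, 265 positive (1.62%) and 81 negative (0.494%). Of the genes higher in the high libraries, 99 were among the positive calls and 11 among the negative, and of the lower genes 6 were negative and 19 positive. Called or not, 68.3% of the higher genes measured there had a positive slope, against 49.7% of all genes. Only 43.5% of the lower genes had a negative slope, against 50.3% of all. The largest slopes of abundant genes were those of Arhgap36 (2.81 log2 per unit of the level, SE 0.30, adjusted p = 0.00295), Slc18a2 (2.66, SE 0.54, adjusted p = 0.0412), AW551984 (2.56, SE 0.29, adjusted p = 0.00361), Dgkk (2.40, SE 0.33, adjusted p = 0.00841) and Dlk1 (2.38, SE 0.43, adjusted p = 0.0372). In the imprinted list 7 of 19 measured genes were called positive and none negative. Avp (0.14, SE 1.19), Oxt (-0.29, SE 0.72) and Pmch (0.11, SE 0.43) had slopes near 0 there, with adjusted p-values of 0.976, 0.900 and 0.938. The largest negative slopes were those of the cerebellar genes Gabra6 (-1.30, SE 0.27, adjusted p = 0.0409), Fat2 (-1.09, SE 0.22, adjusted p = 0.0370), Gabrd (-1.06, SE 0.22, adjusted p = 0.0398) and Cbln1 (-0.93, SE 0.19, adjusted p = 0.0390), with Epha3 (-0.93, SE 0.16, adjusted p = 0.0201). Forebrain excitatory genes were not called, and 10 of 13 had a positive slope, the other way from the ranked libraries. When the cerebellar score was added to the model no gene was called (507 had an unadjusted p under 0.05). Then 40.4% of the higher genes had a positive slope, against 51.1% of all, and 26.2% of the lower genes a negative one, against 48.9%. Both shares lay below those of all genes, the other way from the ranked libraries. In these 9 libraries the level and the cerebellar share thus cannot be told apart.

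The genotype was not used by the rule and was tested within the 18. With the tier and the treatment in the model, edgeR called 780 of 16201 genes (4.81%) between KO and WT, 390 higher (2.41%) and 390 lower (2.41%). With library totals the split was 500 higher and 28 lower, with a median gene at 0.16. Single libraries moved the count by over 1.5 times: it was 339 without WT-aKG-1, 413 without WT-Veh-4, 426 without KO-Veh-10, 490 without WT-Veh-2, 496 without WT-aKG-5, 513 without WT-aKG-4 and 1346 without KO-Veh-9. Leaving out KO-aKG-1 also lowered the count by over 1.5 times. Gpt2 itself was lower in KO by 3.75 log2 units (log2 difference -3.75, SE 0.15, adjusted p = 5.15e-12).

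Genes that the stress factor ATF4 switches on rose in KO across the 18 libraries. Of 33 such genes 25 rose and none fell, under the main scaling (median 0.94) as under library totals (median 1.11). DESeq2 called 22 as higher and none as lower. The amino acid transporter gene Slc7a3 was at 7.54, 9.46 and 11.5 CPM in the 3 WT and 28.4, 36.5 and 49.0 CPM (lowest, median, highest) in the 6 KO high libraries. In the low libraries the 4 WT values were 3.65, 4.58, 6.60 and 7.39 CPM and the 5 KO values 37.7, 40.7, 44.0, 44.4 and 54.4. WT and KO did not overlap at either end, and the log2 difference over the 18 was 2.49 (SE 0.19, adjusted p = 2.67e-07). Ddit3, the stress-response factor CHOP, was at 14.4 to 15.7 CPM in WT and 31.7 to 64.5 in KO high libraries, and at 12.4 to 17.3 and 33.5 to 70.8 CPM in low libraries (1.72, SE 0.16, adjusted p = 1.93e-06). Asparagine synthetase, Asns, rose by 1.13 (SE 0.13, adjusted p = 3.42e-05). Between high and low libraries the list had 1 member (Ddit4) higher and 2 (Psph and Eif4ebp1) lower, fewer than the 19.1% of all genes called, and a median of -0.06 that became 0.20 with library totals, where 3 were higher and 0 lower. Leaving out any of 12 libraries gave 0 higher, and leaving out KO-aKG-1 or WT-Veh-2 gave 0 lower.

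Among the largest changes with genotype outside that list, Cox6a2, a cytochrome c oxidase subunit gene, rose by 2.98 (SE 0.22, adjusted p = 2.67e-07), from 4.94 to 15.1 CPM in the 7 WT to 27.97 to 132 CPM in the 11 KO libraries. Mt3, a brain metallothionein gene, rose by 2.48 (SE 0.20, adjusted p = 2.70e-07), Chac1 of the ATF4 list by 2.76 (SE 0.34, adjusted p = 1.84e-04) and Cyb5r1 by 2.00 (SE 0.21, adjusted p = 1.45e-05). Ighm (-1.56, SE 0.30, adjusted p = 0.00645), Rims1 (-1.16, SE 0.18, adjusted p = 9.33e-04), Apln (-1.15, SE 0.16, adjusted p = 3.77e-04) and Ocel1 (-1.11, SE 0.30, adjusted p = 0.0426) fell. Rims1, a gene of the presynaptic release site, also followed the level. Its WT values were 68.7 to 140 CPM in high and 290 to 403 CPM in low libraries, and its KO values 34.4 to 84.8 and 94.6 to 178 CPM. In the cholesterol synthesis list 11 of 23 genes fell in KO and none rose (median -0.63), among them Stard4 (-0.90, SE 0.15, adjusted p = 0.00209) and Mvk (-0.66, SE 0.12, adjusted p = 0.00277), but 6 without WT-Veh-2 and 1 with library totals. Of 10 glucocorticoid-induced genes Fkbp5, Tsc22d3, Plin4 and Cdkn1a rose in KO, and 2 did without KO-Veh-10, WT-Veh-5 or WT-aKG-5. Between high and low libraries 1 cholesterol gene, Dhcr7, passed as higher. That count was 0 without any of 7 libraries, 5 without WT-Veh-5 and 6 with library totals. Of the glucocorticoid-induced genes none passed with edgeR or DESeq2 and 1 had an unadjusted p under 0.05, and 1 passed as lower without KO-Veh-6 or KO-Veh-9. In the lists of the hypothalamus, thalamus, hindbrain and forebrain excitatory neurons only the hypothalamic Qrfp was called with genotype (3.10, SE 0.83, adjusted p = 0.0371). That call was lost when any of 13 of the 18 libraries was left out. The genotype medians of these lists were 1.14, -0.35, -1.10 and -0.13, so missing calls do not show equal regional content. Among other lists, 3 of 13 microglial, 2 of 21 glutamate receptor, 1 of 12 GABA-A receptor and 1 of 5 proliferation genes were lower in KO. None of these was called lower with library totals. Of 15 other neuropeptides 2 were higher, and 0 without some single libraries. Over all genes 4.81% were called.

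The test of whether the genotype effect differed between the 2 ends called no gene (0% of 16566) with edgeR or DESeq2, and 682 genes (4.12%) had an unadjusted p under 0.05. For Slc7a3 the KO minus WT difference was 1.98 (SE 0.23) in high and 2.99 (SE 0.22) in low libraries, a difference between them of -1.01 (SE 0.30, adjusted p = 0.989). Ocel1 had -0.27 (SE 0.34) in high and -1.84 (SE 0.33) in low libraries, 1.57 apart (SE 0.48, adjusted p = 0.989). For Cox6a2 the 2 values were 2.97 (SE 0.35) and 2.99 (SE 0.31). The median over the ATF4 list was 0.90 in high and 1.00 in low libraries. With 3 WT libraries at the high end, a failed test here does not show that the effects were equal.

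**Figure D5:**
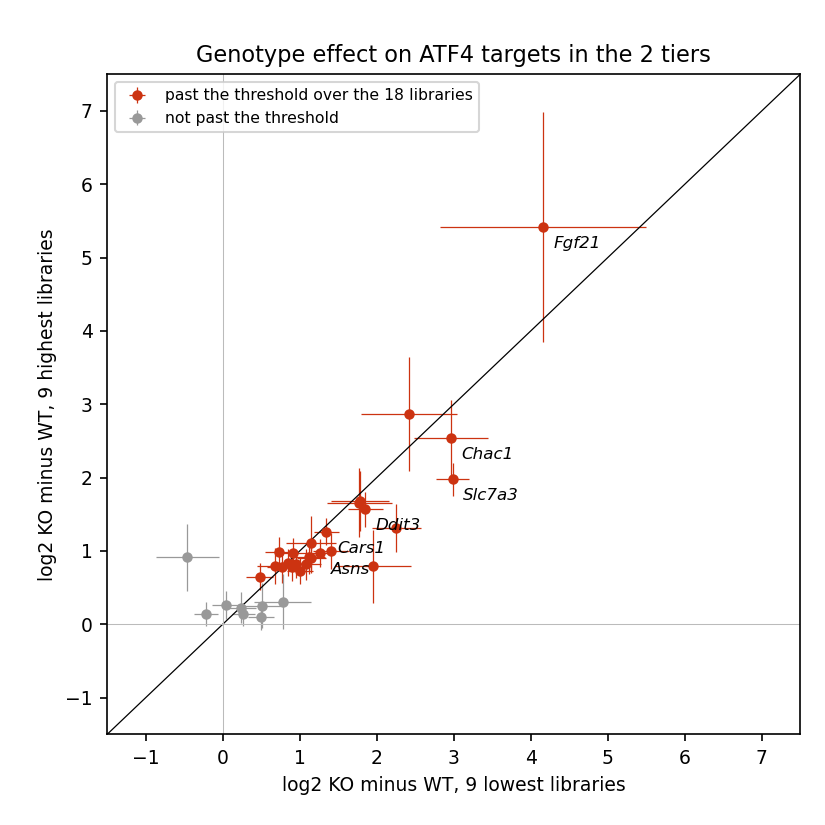
log2 KO minus WT difference of the ATF4 target genes in the 9 lowest (horizontal) and the 9 highest libraries (vertical), with standard errors as lines and the diagonal of equal effects. Most genes lie along the diagonal, and Slc7a3 lies below it, at 2.99 and 1.98.

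The treatment, which the rule did not use but which was unevenly spread over the ends (5 and 3 libraries), gave no called gene among the 18 (0% of 16201) with edgeR or DESeq2, and 664 genes (4.10%) had an unadjusted p under 0.05. Leaving out 1 library at a time gave 0 or 1 called gene, the latter without KO-Veh-4.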

How the data were processed

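Polyadenylated RNA was measured in 36 brain libraries, captured with oligo-dT primers that carry a molecular identifier, per the labels' protocols. Among the programs in the submitters' processing notes are featureCounts 2.0.6, HISAT2 2.2.1 and Trim Galore 0.6.10, and 2 builds, mm39 and mm10, are listed. The build used for counting, the strand setting and the handling of identifiers are not known here, so values of overlapping genes, antisense genes and close paralogs are uncertain. Estimated counts, written as whole numbers, were deposited for 56184 gene symbols (19498 without a count), and CPM for 21637 genes. The deposited CPM gave back the counts to within 0.51 of a count for at least 99.99% of nonzero values in each library.

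The deposited CPM table was used to rank the libraries, with a pseudocount of 1, and for one alternative test. Tests on the counts used edgeR 4.0.16 (R 4.3.3; filterByExpr, TMM scaling, robust quasi-likelihood fit, Benjamini-Hochberg adjustment over all genes tested, threshold 0.05). The model for the 18 libraries held tier, genotype and treatment; the 6 choosing genes took part in scaling but were left out of the adjustment and results. Slopes on the level were fitted in the 9 middle and the 9 left-out libraries with genotype and treatment. Standard errors are the absolute log2 difference divided by the square root of F. Printed CPM are scaled by TMM over all 36 libraries, except the level. The fit was tested on simulated counts.

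The members and the gene lists were chosen with earlier results of these data known. Named genes were the 15 largest rises and the 15 largest falls past the threshold with a mean of at least 5 CPM, without predicted, X-inactivation and Y-linked genes, the 5 largest in each direction in the other comparisons, and any member of a list. No 2 of the 18 libraries had identical values (153 pairs). The alternatives used DESeq2 1.42.0, limma 3.58.1 and the settings given in the closing section. Sequences came from RefSeq tables of GRCm38.p6. Values of some genes in these lists are not reported here, though the lists' counts and medians include them.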

Additional observations from a re-analysis of the deposited data

Results flagged for a closer look

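A library was set apart where its distance to the nearest of the other 8 exceeded 0.493 of the range of its 9 libraries (Dixon's limit). Of 136 combinations of a quantity and an end of the ranking, 10 were set apart; chance alone flags about 1 in 20 groups. Values are log2(CPM + 1), or list scores on that scale.

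WT-Veh-2 stood above the other high libraries in the thalamus score (4.31, next 3.31), the habenula score (3.69, next 2.66) and the cholesterol synthesis score (5.55, next 4.88). KO-aKG-5, also high, had the most Dgkk (4.68, next 3.71). Among the low libraries KO-Veh-10 had the most Pmch (2.67, next 1.06) and Hcrt (2.41, next 0.79). The low library KO-aKG-1 had the highest hippocampus score (4.15, next 3.57) and choroid plexus score (2.62, next 1.68). KO-Veh-4 had the least Igsf1 of the low libraries (1.08, next 1.73), and KO-Veh-6 the lowest telencephalic excitatory score (6.29, next 6.58).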

How the results depend on the processing

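The count of genes called between high and low libraries (3101) stayed within 1.5 times under 35 settings. These included other scalings, DESeq2 (3469), no filter on low counts (2664) and limma on the deposited CPM (3507). Leaving out Slc17a6, Hap1, Baiap3, Ahi1 or Gal from the level chose the same libraries. Those settings, counted among the 35, repeat the main fit and are no check. Leaving out Tcf7l2 changed the low libraries and gave 3050. The count was 2035 with 13 against 13 libraries, 1311 with 12 against 12 of all 36 and 4935 with the level as a number in 27 libraries. It was 1852 with the cerebellar score as a covariate and 260 in vehicle libraries alone. Leaving out 1 library gave 1954 to 3677, lowest without WT-Veh-2. Added after seeing the data, leaving out WT-Veh-2 and KO-aKG-8 gave 1958 and leaving out KO-aKG-5 and KO-Veh-9 gave 2984. The genotype count (780) was 1263 with DESeq2, 2067 with all 27 libraries, and 339 to 1346 with 1 library left out. The treatment count was 0 to 1 with 1 library left out, and the interaction count 2 without the filter on low counts. In the left-out libraries, adding the cerebellar score took 346 calls to 0 and the slope of Gabrd from -1.06 to 0.027; the cause of these shifts was not tested. For single named genes, 1208 of 1287 values under alternatives kept their side of the threshold in the tier comparison and 79 fell short of it, all in the same direction.

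With the replicate number as a replicate block, the tier comparison called 0 genes and the genotype comparison 92. Only the numbers 2, 6 and 8 occur at both ends, and the labels tie no number to a shared litter, batch or day. Deviations of same-numbered libraries had a median correlation of 0.13, with 26 of 50 pairs over 0.1, against a median of -0.013 and 164 of 434 pairs for different numbers. Same-numbered libraries were thus somewhat more alike, and 9 of 36 libraries correlated best with their own number. The main tests did not pair libraries by number because the labels name nothing that they share. Whether a shared origin of same-numbered libraries moved the counts was not tested.

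Genes below about 1 CPM, such as Ghrh and Hoxb5, rest on few counts in the low libraries, and KO-aKG-5 has the fewest counts of all.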
